A study of Mus musculus with 7 samples.

Results

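Mature miRNAs of primary mouse myogenic progenitor cells were compared between day 5 and day 0 of differentiation with TaqMan real-time PCR assays. This pair is 1 of 7 deposited pairs of day columns, and it was chosen by its label, with all 375 miRNA assays of the panel of 381 as members, of which 40 carry rat sequences (prefix rno). The cells came from hind limb muscle of C57BL/6J mice and were used at passage 3. They were expanded on collagen in Ham's F-10 with 20% fetal bovine serum and 10 ng/ml FGF-2. For differentiation they were plated on a coating of entactin, collagen IV and laminin, left for 24 hours in that growth medium, which is day 0, and then moved to DMEM with 2% horse serum, in which they stayed until day 5. The growth medium cultures used for comparison below were on type I collagen and were collected on days 2 and 5, so that medium and coating both differ between the 2 kinds of culture. Neither the age or number of the mice nor a way of purifying the cells is given in the labels used here. Each day has 4 rows of threshold cycles (Ct), the PCR cycle at which an assay's signal passes a set level. Whether the rows of a day come from separate cultures or from a single RNA extract is not stated in the labels. The p-values therefore reflect row-to-row spread alone, and that spread may be technical.

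Myogenic progenitors divide, leave the cell cycle and fuse into multinucleated myotubes. A miRNA binds messenger RNAs mainly through its seed, bases 2 to 8 counted from the 5′ end, and lowers their stability and translation, so that miRNAs with the same seed share many targets. Each hairpin precursor can give a mature miRNA from its 5′ side (5p) and another from its 3′ side (3p). A few miRNAs, such as miR-1, miR-133a, miR-133b, miR-208b and miR-499, are made almost only in skeletal and heart muscle, and their genes are switched on by the muscle transcription factors. The miR-17-92 cluster and the family of miR-15 and miR-16 are known for their links with the cell cycle, the former as a target of MYC and E2F, the latter through cyclin mRNAs.

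The mature sequences below are a selection of the miRNAs named in the results, from RefSeq on GRCm38.p6, with the seed in capitals. Of 335 mouse assays 209 matched a RefSeq mature sequence. The first set rose from day 0 to day 5. It holds miR-499, whose hairpin lies within the span of the myosin heavy chain gene Myh7b. The muscle miRNA miR-133b lies within the span of the noncoding RNA gene Lincmd1. The others are miR-10b of the Hoxd gene cluster, miR-666-5p, and let-7f with miR-98, which share a seed. miR-666-5p was tested only because of its day 5 Ct values (below), so its rise is no support for a change.
miR-499: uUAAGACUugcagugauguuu
miR-133b: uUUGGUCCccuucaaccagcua
miR-10b: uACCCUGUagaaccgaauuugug
miR-666-5p: aGCGGGCAcagcugugagagcc
let-7f: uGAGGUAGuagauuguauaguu
miR-98: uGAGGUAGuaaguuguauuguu
Their mature positions are chr2:155622893-155622913 (plus strand) for miR-499, chr1:20682834-20682855 (plus) for miR-133b, chr2:74726074-74726096 (plus) for miR-10b, chr12:109717103-109717124 (plus) for miR-666-5p and chrX:151913229-151913250 (plus) for miR-98. The gene of let-7f has copies at chr13:48537889-48537910 (minus) and chrX:151912353-151912374 (plus).

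The second set holds both arms of the miR-335 hairpin, of which only the 3p arm fell, and miRNAs of the groups linked with the cell cycle, in which miR-15b shares its seed with miR-16, and miR-17 with miR-20a. The 2 arms of miR-335 have different seeds.
miR-335-3p: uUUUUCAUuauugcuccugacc
miR-335-5p: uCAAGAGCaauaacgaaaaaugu
miR-15b: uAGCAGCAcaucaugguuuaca
miR-16: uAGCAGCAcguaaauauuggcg
miR-17: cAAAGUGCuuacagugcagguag
miR-20a: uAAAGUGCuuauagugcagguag
miR-92a: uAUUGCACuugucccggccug
The arms of miR-335 lie at chr6:30741354-30741375 (3p) and chr6:30741314-30741336 (5p), both on the plus strand and within the span of the imprinted gene Mest. miR-15b lies at chr3:69009775-69009796 (plus), beside 1 of the copies of miR-16 at chr3:69009918-69009939 (plus), both within the span of Smc4, which encodes a condensin subunit. miR-17 lies at chr14:115043684-115043706 (plus) and miR-20a at chr14:115044183-115044205 (plus), and miR-92a has a copy in the same cluster, at chr14:115044476-115044496 (plus).

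All values below are delta Ct, an assay's Ct minus the Ct that its own row gave for the small nuclear RNA MammU6. A lower delta Ct means more miRNA, and 1 cycle is about 2-fold. Changes are log2 (day 5 minus day 0, positive for more miRNA) ± SE of a limma fit, with n = 4 rows on each day unless a smaller number of wells is given. A miRNA was called where its p-value, adjusted over all 246 assays tested (Benjamini-Hochberg), was under 0.05. Of the 129 that were not tested, 84 had no Ct in any of the 8 rows, 43 had fewer than 3 wells on a day and 2 had a mean Ct of 35 or more on both days. MammU6 had Ct 13.81, 12.69, 13.05 and 12.36 in the 4 rows of day 0 and 13.69, 12.58, 12.74 and 12.87 in those of day 5, with row 1 the latest on both days. The other 4 small RNA controls changed by 0.10 to 0.68 against MammU6, and none passed (limma adjusted p = 0.40 to 0.82).

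Most miRNAs that moved went up. In all, 128 of 246 were called (52%), 104 higher (42.3%) and 24 lower (9.76%), and 143 had an unadjusted p under 0.05. Of the 104, 96 rose by at least 2-fold and 20 by at least 8-fold, and all 24 falls were at least 2-fold. The rows did not overlap, with day 5 higher throughout, for 79 assays (32.1%), and with day 5 lower throughout for 20 (8.13%). The median change of all 246 was 0.89, so that the reference matters for small changes. With each row set against the median of its own miRNA assays, the change of each assay with 8 wells was lower by 1.16, the median of all was -0.27, and 48 were called higher (19.5%) and 84 lower (34.1%). The 48 higher and all 24 of the lower calls stood under both references. As the row median lowers nearly all changes by the same amount, this agreement was largely set in advance. With snoRNA202, U87, Y1, snoRNA135 or the mean of the 4 other controls as reference, 71, 85, 66, 120 and 91 were called higher and 52, 40, 38, 33 and 42 lower. The Ct filter let in 7 assays through day 5 only, 5 of them among the 104, and 2 assays through day 0 only, both among the 24. Those 9 had to differ in that direction to be tested, so their calls are no support for a change. They remain in the counts given here and below.

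**Figure D1:**
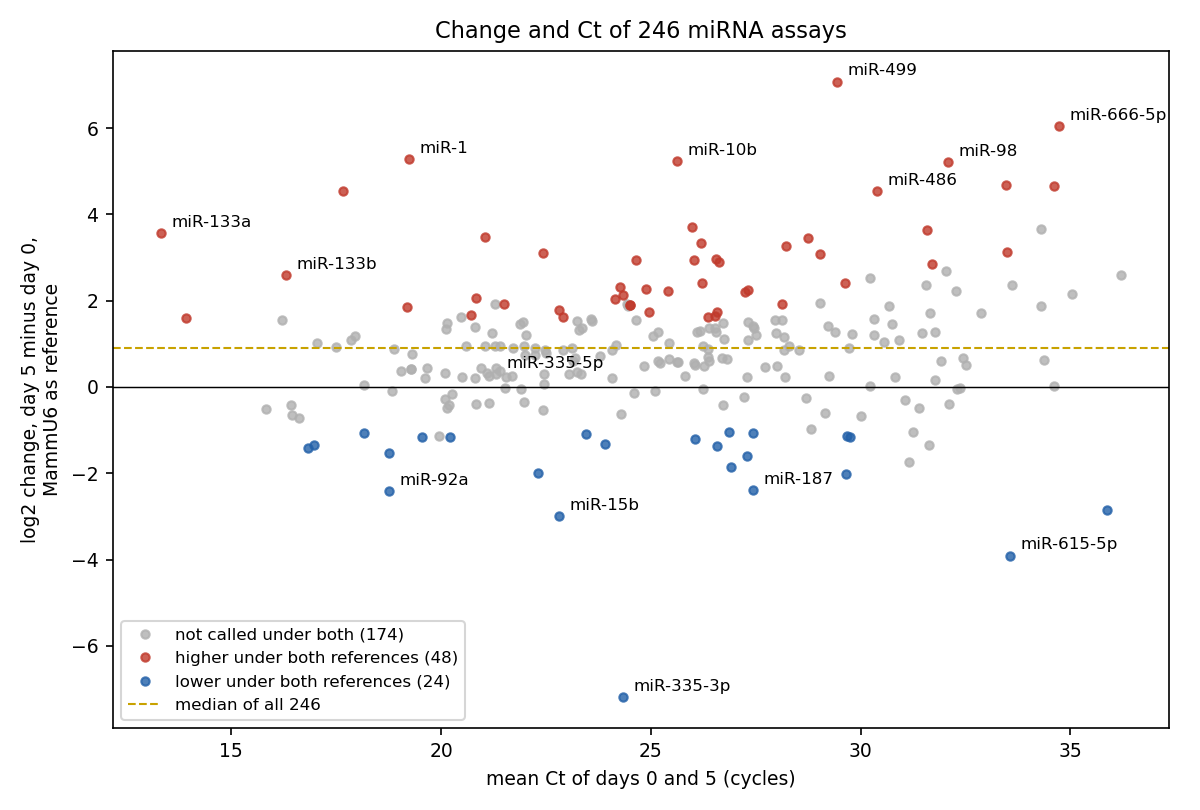
Each point is 1 of 246 miRNA assays, with the mean Ct of days 0 and 5 on the x axis (cycles) and the log2 change from day 0 to day 5 against MammU6 on the y axis. Red points (48) were called higher and blue points (24) lower under both MammU6 and the row median as reference, and most points lie above 0, around the dashed median of 0.89, and miR-499 and miR-335-3p are the extremes.

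The muscle-restricted miRNAs rose the most as a group. Of 6 tested members 5 rose and 0 fell, against 42.3% and 9.76% of all tested assays, with a list median of 4.05 beside 0.89 for all, and the same 5 passed against the row median. miR-499 had delta Ct 18.15, 21.95, 20.53 and 19.35 on day 0 and 11.68, 12.44, 14.17 and 13.38 on day 5. Every row of day 5 lay below every row of day 0, a change of 7.08 ± 0.76 or 135-fold (adjusted p = 1.6e-06). miR-1 stood at 8.46, 9.68, 8.83 and 8.60 on day 0 and at 2.87, 3.76, 4.08 and 3.77 on day 5. That is a rise of 5.27 ± 0.45, or 38.7-fold (adjusted p = 9.25e-08), again with no overlap between the days. The assay made for the rat sequence of miR-1 rose by 4.54 ± 0.44 on the same RNA.

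miR-133a, which is processed from the same primary transcripts as miR-1, had delta Ct 1.76, 2.67, 2.17 and 1.92 on day 0 and -1.89, -1.29, -1.26 and -1.28 on day 5. Its signal thus came later than that of MammU6 in each row of day 0 and earlier in each row of day 5, with a mean Ct of 11.5 on day 5, the earliest of all tested assays on that day. The rise was 3.56 ± 0.30, or 11.8-fold (adjusted p = 9.25e-08). miR-133b went from 4.00, 5.11, 5.07 and 4.38 to 1.35, 2.19, 2.52 and 2.12, a rise of 2.60 ± 0.39. miR-486, which is enriched in muscle, went from 19.34, 19.63, 21.18 and 18.60 to 14.78, 14.50, 15.59 and 15.74, a rise of 4.54 ± 0.48. No row of either day overlapped in both cases. The sixth member, miR-208b, whose gene lies in the slow myosin heavy chain gene Myh7, had delta Ct 18.11, 18.98, 17.95 and 17.35 on day 0 and 17.43, 17.64, 16.80 and 16.31 on day 5. These rows overlap, and its change of 1.05 ± 0.45 did not pass (adjusted p = 0.0593). miR-208, from the heart myosin gene Myh6, gave a Ct in 0 wells of day 0 and 1 of day 5 and was not tested.

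**Figure D2:**
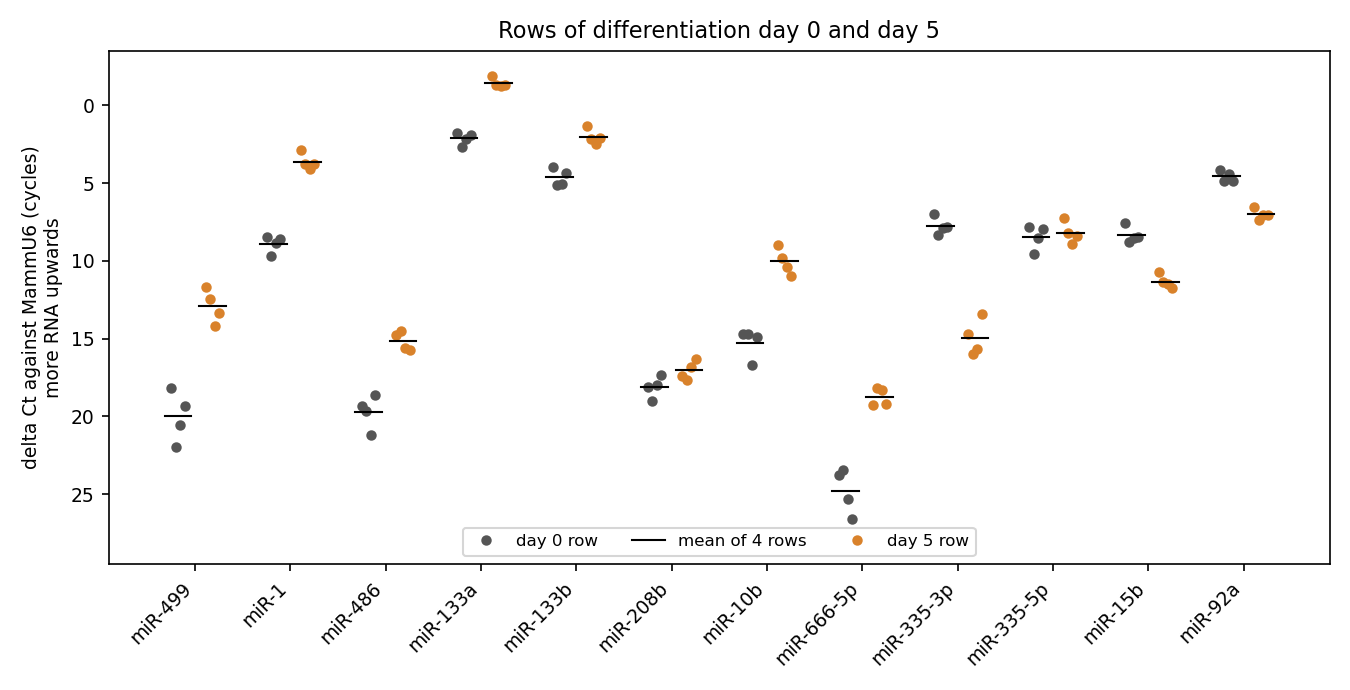
Delta Ct against MammU6 (cycles, axis turned so that more RNA is higher) of 12 miRNAs, with a point for each of the 4 rows of day 0 (grey) and day 5 (orange) and a bar for their mean. The 2 days stand apart for 10 of them and overlap for miR-208b and miR-335-5p. Among the 10, miR-666-5p passed the Ct filter through day 5 only.

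The rises outside that list included a Hox cluster miRNA, members of the let-7 family and both arms of several precursors. miR-10b, which lies among the Hoxd genes, had delta Ct 14.72, 14.72, 16.72 and 14.91 on day 0 and 8.98, 9.82, 10.40 and 10.97 on day 5. It rose by 5.22 ± 0.53, or 37.4-fold (adjusted p = 9.05e-07), with row 3 of day 0 about 2 cycles later than the other rows. miR-10a, its relative from the Hoxb cluster, changed by 1.51 ± 0.71 and did not pass (adjusted p = 0.0852). The other members of the Hox list were miR-196b at -0.34 ± 0.34, not past the test, and the arms of miR-615, which fell (below). Of its 5 members 1 rose and 2 fell, against 42.3% and 9.76% of all assays. Among the falls, miR-615-5p passed the Ct filter through day 0 only. Against the row median 1 was higher and 3 lower, beside 19.5% and 34.1% of all assays.

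The let-7 family, known for its part in ending proliferative programs, had 4 of 9 members higher and 0 lower, near the share of all assays, and its median of 0.96 lay close to the 0.89 of all. Its members differed widely. miR-98 had delta Ct 20.52, 21.24, 23.24 and 21.82 on day 0 and 15.79, 15.48, 18.19 and 16.54 on day 5, a rise of 5.21 ± 0.74, or 36.9-fold (adjusted p = 2.74e-05). let-7f rose by 2.93 ± 0.59, let-7a by 1.92 ± 0.59 and let-7g by 1.50 ± 0.48, the last of which did not pass when either of 2 rows was left out. let-7b and let-7c changed by 0.24 ± 0.45 and 0.42 ± 0.42 and did not pass. miR-98 and let-7f have their genes next to each other, within the span of the ubiquitin ligase gene Huwe1 on the X chromosome, and let-7f has its other copy on chromosome 13. TaqMan assays of members that differ by few bases may detect each other in part, which was not tested.

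miR-339-5p and miR-339-3p rose together, by 3.71 ± 0.57 and 2.95 ± 0.25, and the assay for the rat miR-339-3p by 3.34 ± 0.27. miR-339-3p was among the assays with the smallest SE. miR-139-5p, from within the span of the phosphodiesterase gene Pde2a, had delta Ct 9.57, 10.25, 9.64 and 9.75 on day 0 and 5.95, 6.47, 6.37 and 6.50 on day 5, and rose by 3.48 ± 0.29, or 11.2-fold (adjusted p = 9.25e-08). Its partner miR-139-3p had no Ct in any of the 4 wells of day 0 and a Ct in all 4 of day 5 (35.69, 32.30, 33.42 and 35.50). With absent wells set at the last cycle, 40, this is at least 54.4-fold higher, with no allowance for the spread between wells. It had a Ct in 1 well on day 1, in 4 on day 2 and in none of either growth medium day. miR-139-3p was named for this pattern of wells and was not tested, so it is no support for a rise of both arms.

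Rises from late Ct values rest on little template, and those of miR-666-5p, miR-758, miR-330 and miR-344 are of assays that passed the Ct filter through day 5 only. miR-666-5p went from 23.79, 23.47, 25.28 and 26.57 to 19.26, 18.19, 18.30 and 19.21, a change of 6.04 ± 0.70, or 65.7-fold, from a mean Ct of 37.8. Starting at a mean Ct of 36.9, the rat assay for miR-758 rose by 4.65 ± 1.17, and miR-330, starting at 35.7, by 4.67 ± 0.76 (7 wells). miR-344 rose by 3.67 ± 1.12 (7 wells), with rows that overlap, and did not pass against the row median (adjusted p = 0.108). miR-598, at a mean Ct of 33.4 on day 0, rose by 3.63 ± 0.63, and miR-504, within the span of Fgf13 and at 30.5, by 3.45 ± 0.47. miR-425 rose by 2.90 ± 0.36, with rows 15.84, 15.28, 14.85 and 14.48 on day 0 and 12.11, 12.08, 12.09 and 12.56 on day 5.

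The deepest fall was that of a single arm. miR-335-3p had delta Ct 7.01, 8.32, 7.92 and 7.81 on day 0 and 14.70, 15.99, 15.70 and 13.41 on day 5. It fell by 7.19 ± 0.53 on the log2 scale, or 146-fold (adjusted p = 7.48e-08), and every row of day 5 lay over 5 cycles later than every row of day 0. miR-335-5p, from the other side of the same hairpin, stood at 7.84, 9.59, 8.53 and 7.95 on day 0 and at 7.25, 8.23, 8.89 and 8.38 on day 5. These rows overlap, and the change was 0.29 ± 0.54 (adjusted p = 0.651), with -0.87 against the row median (adjusted p = 0.0382). On day 0 the 2 assays had thus been within 1 cycle of each other on average.

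Other falls were of miR-615-5p, from the Hoxc cluster, which went from 17.98, 19.03, 18.80 and 18.66 to 22.33, 22.64 and 22.60, with no Ct in row 4 of day 5. It fell by 3.91 ± 0.43, or 15-fold, and with a mean Ct of 35.5 on day 5 it passed the Ct filter through day 0 only. miR-187 fell by 2.38 ± 0.32, miR-582-3p by 2.02 ± 0.46, miR-125b-3p by 1.86 ± 0.28 and miR-685 by 2.00 ± 0.28, each with all rows of day 5 later than all rows of day 0. miR-155, which is abundant in activated immune cells and has been reported to act on Mef2a in myoblasts, fell by 1.16 ± 0.34. miR-204, which is abundant in epithelia, fell by 1.36 ± 0.52, but did not pass when any 1 of 5 rows was left out. The rat assay for miR-207 fell by 2.84 ± 0.94 between mean Ct values of 34.5 and 37.3, with overlapping rows, and did not pass without either of 2 rows. It too passed the Ct filter through day 0 only, and the mouse assay for miR-207 gave no Ct in any of the 8 rows. Last, miR-7a and miR-7b fell by 1.14 ± 0.41 and 1.17 ± 0.38.

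The miRNAs linked with the cell cycle fell or did not pass, with the exception of an X-linked pair. Among members of the miR-17-92 cluster and of its paralogs 6 of 11 tested members fell and 0 rose, against 9.76% and 42.3% of all assays, and the list median was -1.07. The members that fell were miR-92a, miR-106a, miR-17, miR-20b, miR-18a and miR-20a. miR-92a had delta Ct 4.15, 4.85, 4.43 and 4.89 on day 0 and 6.53, 7.35, 7.03 and 7.07 on day 5, a fall of 2.42 ± 0.29, or 5.33-fold (adjusted p = 6.78e-06). miR-17 went from 2.93, 3.80, 3.17 and 3.45 to 4.17, 4.88, 4.98 and 4.68, a fall of 1.34 ± 0.29. The rows of the days stood apart in all 6, as they did in 20 of the 24 lower calls, with 8.13% of all assays lower throughout.

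Counted by locus, the list gave the following. At the locus on chromosome 14 (chr14:115043671-115044506, plus strand), which lies in the noncoding gene Mir17hg, 4 of 6 tested members fell, with miR-19a at -0.40 ± 0.33 and miR-19b at -0.71 ± 0.32 not past the test. At its X-linked copy (chrX:52741838-52742567, minus strand) 3 of 4 fell, among them miR-106a at -1.43 ± 0.29 and miR-20b at -1.17 ± 0.30. miR-19b and miR-92a belong to both loci, and their assays cannot assign the signal to either. At the locus within the replication gene Mcm7 (chr5:138165321-138165818, minus strand) 0 of 3 passed, with miR-106b at -0.03 ± 0.38, miR-93 at -0.48 ± 0.34 and miR-25 at -0.54 ± 0.41. Against the row median all 11 members of the list were called lower, beside 34.1% of all assays. The difference between the loci itself was not tested.

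The miR-15 and miR-16 family, which also counts miR-503 and miR-322, had 3 of 7 members lower and 2 higher, against 9.76% and 42.3% of all assays. miR-15b had delta Ct 7.56, 8.81, 8.51 and 8.48 on day 0 and 10.71, 11.38, 11.50 and 11.74 on day 5, a fall of 2.99 ± 0.37, or 7.96-fold (adjusted p = 6.9e-06). Falls were also seen for miR-195, by 1.31 ± 0.31, and for miR-16, by 1.52 ± 0.32. The rows of both days stood apart in all 3, as in 20 of the 24 lower calls. miR-15a and miR-497 changed by 0.23 ± 0.49 and -0.68 ± 0.48 and did not pass. The X-linked members miR-503 and miR-322 rose, by 1.54 ± 0.35 and 0.95 ± 0.36, but neither passed against the row median, where miR-322 stood at -0.21, and miR-322 did not pass when any 1 of 5 rows was left out. miR-222 and miR-221, which target the messenger of p27, an inhibitor of cell division, changed by -0.51 ± 0.33 and -1.13 ± 0.48 and did not pass (adjusted p = 0.209 and 0.0574), while both were lower against the row median.

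**Figure D3:**
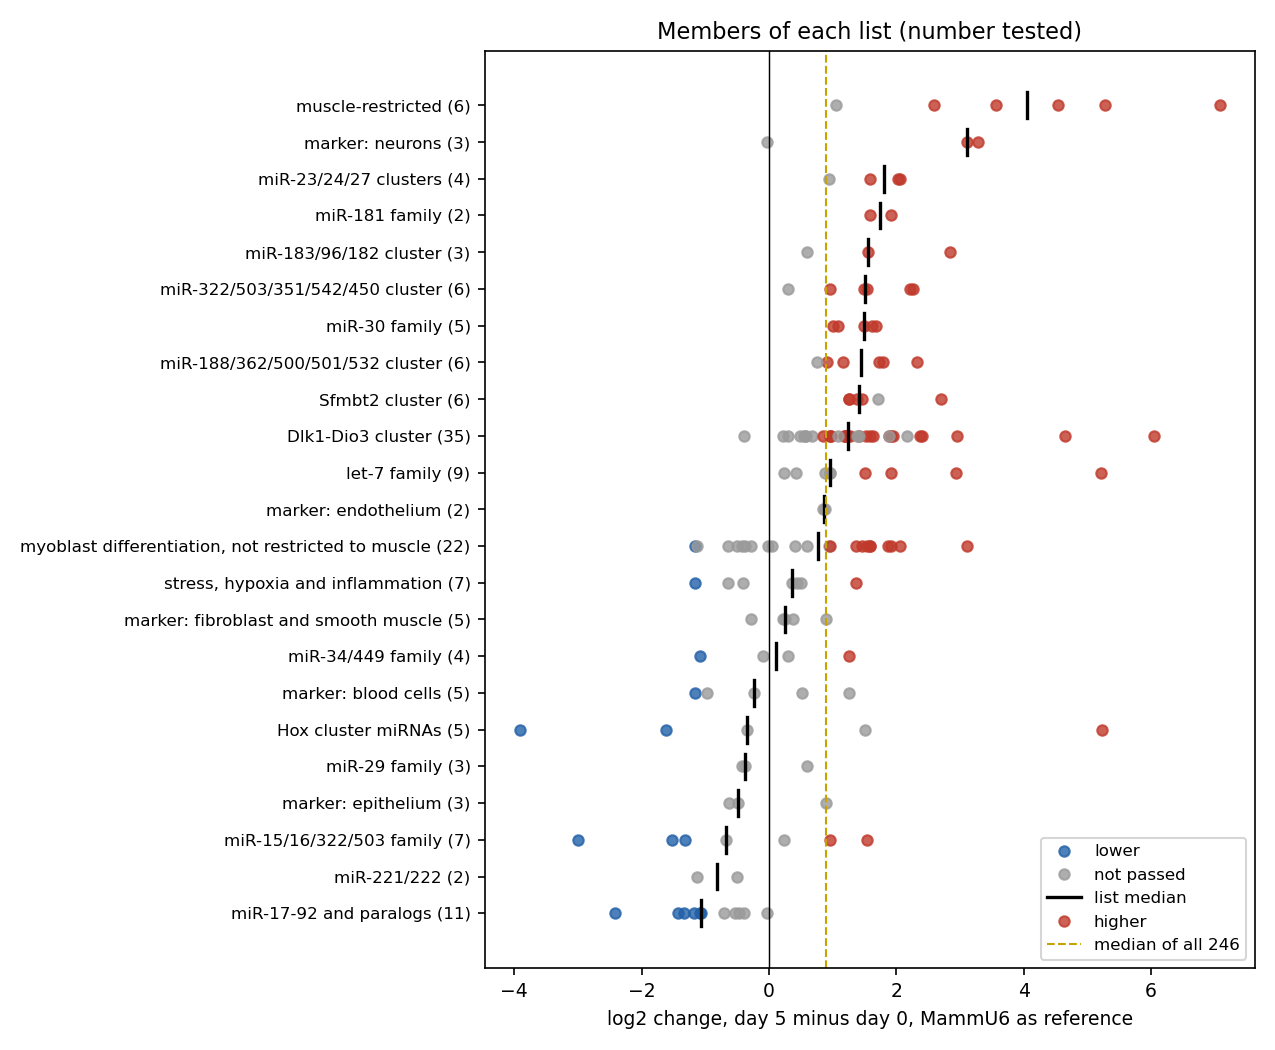
Log2 change from day 0 to day 5 against MammU6 of the tested members of each list (1 point each), coloured by their call, with a black bar for the list median and a dashed line for the median of all 246 assays. The muscle-restricted list (median 4.05) is at the top and the miR-17-92 list (median -1.07) at the bottom, with the medians of the other lists between them.

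Of 163 tested mouse assays with a RefSeq sequence, 121 different seeds were found, and 9 seeds were shared by 3 or more. The seed AAAGUGC, carried by miR-17, miR-20a, miR-20b, miR-93, miR-106a and miR-106b, had 4 of 6 lower and 0 higher, at a median of -1.12, against 9.76% lower and 42.3% higher among all assays tested. Among matched assays, the seed AGCAGCA, of miR-15a, miR-15b, miR-16, miR-195 and miR-497, had 3 of 5 lower and 0 higher, at a median of -1.31. miR-322 of the same family, called higher against MammU6 only, had no matched sequence and is not counted here. In the other direction, the seed CAGUGCA of miR-148a, miR-148b and miR-152 had 3 of 3 higher, at 1.73 ± 0.53, 0.86 ± 0.33 and 1.92 ± 0.40, and miR-148a and miR-152 passed against the row median as well. The let-7 seed GAGGUAG had 4 of 9 higher. The seed of miR-29a, miR-29b and miR-29c, which repress collagens, gave no call among its 3 members, at -0.43 ± 0.42, 0.59 ± 0.44 and -0.38 ± 0.46. Nor did any member pass for the seed of miR-99a, miR-99b and miR-100 (0.33 to 0.44). Against the row median 2 of 3 were lower for each of these last 2 seeds, beside 34.1% of all assays.

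The miRNAs with a reported role in differentiating myoblasts that other tissues express too were mixed, with 10 of 22 higher and 1 lower at a median of 0.77, near the 42.3% higher and the median of 0.89 of all assays. Against the row median 5 were higher and 8 lower, beside 19.5% and 34.1% of all assays. Among those that rose, miR-26a, which acts on the mRNA of the histone methyltransferase Ezh2, went from 6.46, 7.64, 7.47 and 7.06 to 4.62, 5.44, 5.75 and 5.37, a rise of 1.86 ± 0.37. miR-27b, reported to act on Pax3 in muscle progenitors, rose by 2.06 ± 0.45, miR-24 by 1.59 ± 0.31 and miR-181a by 1.91 ± 0.50. miR-128a rose by 3.11 ± 0.41. The only member that fell was miR-155. miR-31, reported to act on Myf5 in satellite cells, changed by -0.65 ± 0.31, miR-125b-5p by 0.05 ± 0.49 and miR-214 by -0.28 ± 0.33, none of them past the test, though miR-125b-5p was lower against the row median at -1.11. In the clusters that hold miR-24 with the miR-23 and miR-27 genes, 3 of 4 rose and all 3 did so against the row median, with miR-23b at 2.03 ± 0.42, whereas miR-27a, at 0.94 ± 0.39, did not pass. The miR-30 family had 5 of 5 higher, between 1.01 and 1.68. Of these, 2 passed against the row median, miR-30d and miR-30e, while miR-30b and miR-30c stood at -0.08 and -0.15 there, and neither passed against MammU6 when any 1 of 4 rows was left out.

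Among assays placed on a RefSeq hairpin, hairpins less than 10 kb apart on a strand formed 11 clusters with 3 or more tested assays. Members not placed, such as miR-322, miR-351 and miR-666-5p, are missing from these counts but are in the lists below. Of the 11 clusters, 6 held higher calls only, 3 lower calls only, 2 no call and 0 both. Some assays, such as that of miR-92a, count in 2 of them. The lists below are to be read against the 42.3% higher and 9.76% lower of all assays and their median of 0.89. With the row median, 19.5% of all assays were higher and 34.1% lower. On the X chromosome, the cluster of miR-322, miR-503, miR-351, miR-542 and miR-450 had 5 of 6 higher and 0 lower, led by the 2 arms of miR-542 at 2.26 ± 0.33 and 2.21 ± 0.44, whereas miR-351 changed by 0.29 ± 0.31, and against the row median 2 of the 6 were higher. The cluster of miR-188, miR-362, miR-500, miR-501 and miR-532, within the span of the chloride transporter gene Clcn5, also had 5 of 6 higher, led by miR-500 at 2.32 ± 0.46, with 3 of the 6 higher against the row median. The cluster of miR-183, miR-96 and miR-182 had 2 of 3 higher, with miR-96 at 2.85 ± 0.59 and miR-183 at 1.56 ± 0.29, and miR-182 at 0.60 ± 0.26 did not pass although its rows stood apart. The Dlk1-Dio3 imprinted region had 22 of 35 tested members higher and 0 lower at a median of 1.24, and 6 of the 22 passed against the row median: miR-666-5p, the rat miR-758 assay, miR-382, miR-136, miR-337-3p and miR-337-5p. Of these, miR-666-5p and the rat miR-758 assay had passed the Ct filter through day 5 only. Of the Sfmbt2 cluster 5 of 6 were higher, led by miR-669a at 2.69 ± 0.82, and none of the 6 passed against the row median in limma.

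Both arms of 19 precursors could be tested, and the difference between the arms in the same row needs no reference. The balance (5p minus 3p on the log2 scale) changed in 8 of the 19 (42.1%). For miR-335 it went from -0.71 to 6.76, a change of 7.47 ± 0.50 towards the 5p arm. For miR-125b and miR-125a it changed by 1.91 ± 0.40 and 1.24 ± 0.16, with 3p arms that fell while miR-125b-5p at 0.05 ± 0.49 and miR-125a-5p at 0.20 ± 0.27 did not pass. The 5p arms of miR-125a and miR-125b share a seed. The gene of miR-125b-5p has copies on chromosomes 9 and 16, and the miR-125b-3p assay had no matched sequence. Whether both assays report the same copies was not tested. For miR-324 and miR-345 the 5p arm rose while the 3p arm did not pass, with changes of balance of 1.41 ± 0.22 and 1.34 ± 0.24.

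In the other direction, the balance of miR-615 moved by -2.61 ± 0.44, with both arms lower and the 5p arm lower by more. Its 5p arm passed the Ct filter through day 0 only. The balance of miR-296 moved by -1.99 ± 0.53, with miR-296-3p rising by 3.14 ± 0.76 from late Ct values (7 wells). The change for miR-340, 0.75 ± 0.28 (adjusted p = 0.0444), was the smallest of the 8 and did not pass when any 1 of 6 rows was left out. The balances of miR-542, miR-126 and miR-199a changed by 0.0475 ± 0.27, 0.0175 ± 0.19 and -0.035 ± 0.60. None was called, and the wide SE of miR-199a does not exclude a sizeable change. The arms of miR-339 and miR-337 rose together, and their balance did not pass the test.

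**Figure D4:**
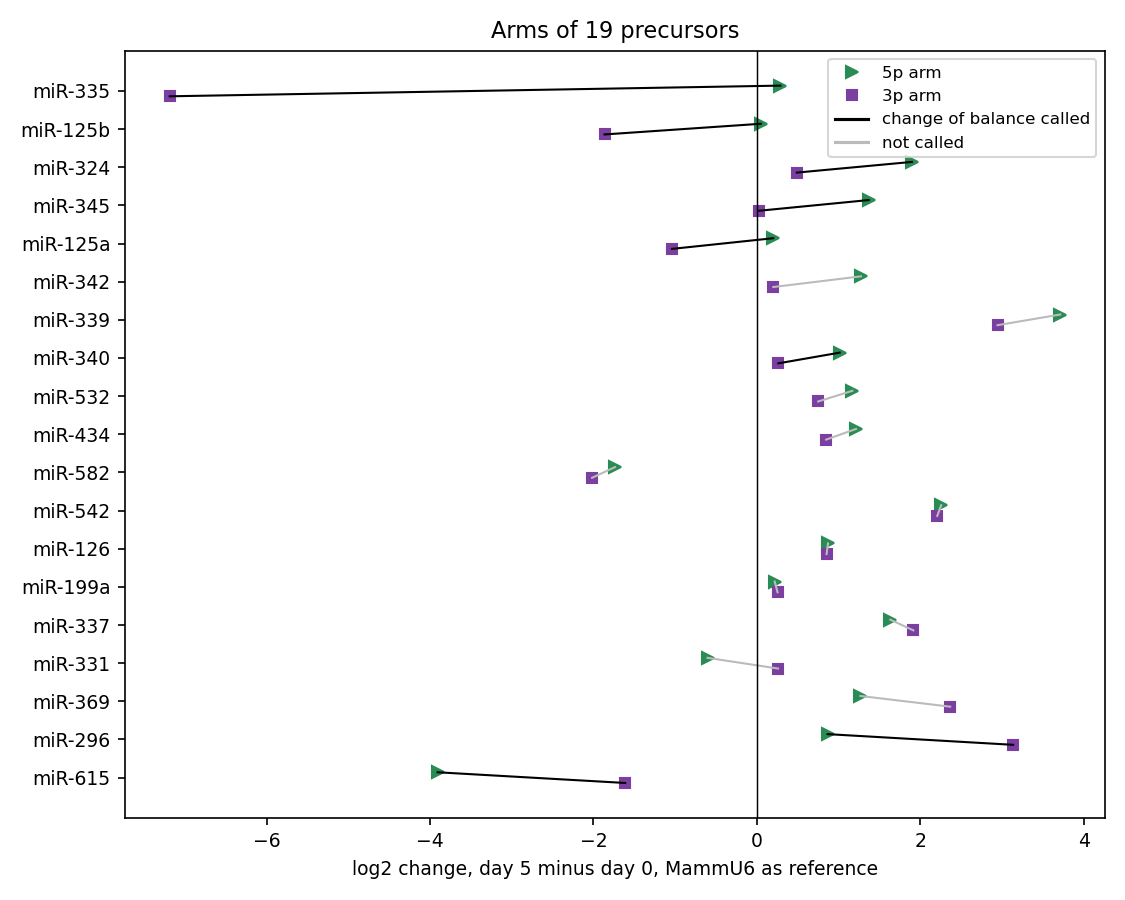
Log2 change from day 0 to day 5 against MammU6 of the 5p arm (triangle) and the 3p arm (square) of 19 precursors, joined by a black line where the change of their balance was called (8) and by a grey line where it was not. miR-335 has the longest line, with the 3p arm at -7.19 and the 5p arm at 0.29.

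Of the 375 miRNA assays, only 2 went from no detected well on one of the days to 4 detected wells on the other. Both were detected on day 5. Besides miR-139-3p this was miR-302b, a miRNA of pluripotent cells, with Ct 31.65, 34.48, 32.94 and 31.92 on day 5. With the absent wells at 40 cycles it was at least 152-fold higher, with no allowance for the spread between wells. Like miR-139-3p, it was named for this pattern of wells and was not tested, so it is no support for a rise. It had no Ct in any well of the other differentiation days or of growth medium. Its cluster partners miR-302a, miR-302c and miR-302d had a Ct in 1, 0 and 1 wells of day 5 and in none of day 0. No assay was detected in all wells of day 0 and in none of day 5.

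The intermediate days show when the changes lay. miR-499, miR-1 and miR-133a were at a mean delta Ct of 20.00, 8.89 and 2.13 on day 0, 19.35, 8.61 and 1.76 on day 1, 15.62, 5.59 and -0.13 on day 2, and 12.92, 3.62 and -1.43 on day 5. Most of their change from day 0 thus lay after day 1. miR-98 was at 21.70, 19.72, 16.27 and 16.50 on the 4 days, so that its day 5 level was already there on day 2. miR-335-3p was at 7.76, 6.97, 8.66 and 14.95, and its fall lay between days 2 and 5. miR-15b was at 8.34, 8.66, 9.09 and 11.33, likewise lower mostly after day 2, whereas miR-92a was at 4.58, 5.29 and 5.87 on days 0, 1 and 2 and thus later at each step. The X-linked miR-503 and miR-322 had a lower delta Ct on day 2 (8.70 and 7.62) than on day 5 (9.87 and 8.52), so that their highest mean level of the 4 days was on day 2. These means are descriptions, with no test of the steps.

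Growth medium cultures were set beside this change to ask which of it also took place without the switch of medium. The muscle miRNAs did not stay level there: from growth day 2 to day 5 miR-499 changed by 4.33, miR-486 by 3.31, miR-208b by 3.57, miR-1 by 2.07 and miR-133a by 0.98. On growth day 5 miR-1 stood at a mean delta Ct of 7.43 and miR-133a at 1.66, later than the 3.62 and -1.43 of differentiation day 5. The change over differentiation minus the change in growth medium was called higher for 15 of 243 assays (6.17%) and lower for 15 (6.17%). This count moved with the reference: 17 were higher and 66 lower against the row median, and 39 and 26 with the mean of the 4 controls. With a single control the higher and lower calls were 85 and 10 (snoRNA135), 35 and 18 (snoRNA202), 14 and 27 (U87) and 18 and 12 (Y1). Of the muscle list it was called for miR-1 at 3.21 ± 0.62 and miR-133a at 2.58 ± 0.46, and in the opposite direction for miR-208b at -2.52 ± 0.69. For miR-499, at 2.75 ± 1.07, it did not pass (adjusted p = 0.109).

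Differences between the media were also called for miR-666-5p, which passed the Ct filter through differentiation day 5 only, and for miR-335-3p. miR-666-5p rose in differentiation and changed by -3.34 in growth medium, where 3 wells had a Ct on each day, with delta Ct 25.99, 26.31 and 26.33 on growth day 5, and the difference was 9.37 ± 1.25. miR-335-3p had delta Ct 7.89, 4.92, 7.01 and 6.76 on growth day 2 and 7.34, 7.42, 7.49 and 8.10 on growth day 5, a change of -0.94, and the difference was -6.24 ± 0.80. miR-15b and miR-92a differed by -3.72 ± 0.64 and -3.02 ± 0.51, having changed by 0.72 and 0.60 in growth medium. miR-135a did not pass in differentiation, at -0.25 ± 0.43, but changed by 3.00 in growth medium (difference -3.25 ± 0.68).

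The growth medium pair starts on day 2 and the differentiation pair on day 0. With day 5 minus day 2 in both media, 3 of 243 were called higher (1.23%) and 15 lower (6.17%), and 7 of the 30 calls stood in the same direction: miR-666-5p, miR-335-3p, miR-15b, miR-92a, miR-135a, miR-195 and miR-208b. On those days the difference was -0.09 for miR-1 and 0.32 for miR-133a, neither past the test. Their difference from growth medium therefore rests on the interval before day 2 of differentiation, for which growth medium has no matching pair of days.

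**Figure D5:**
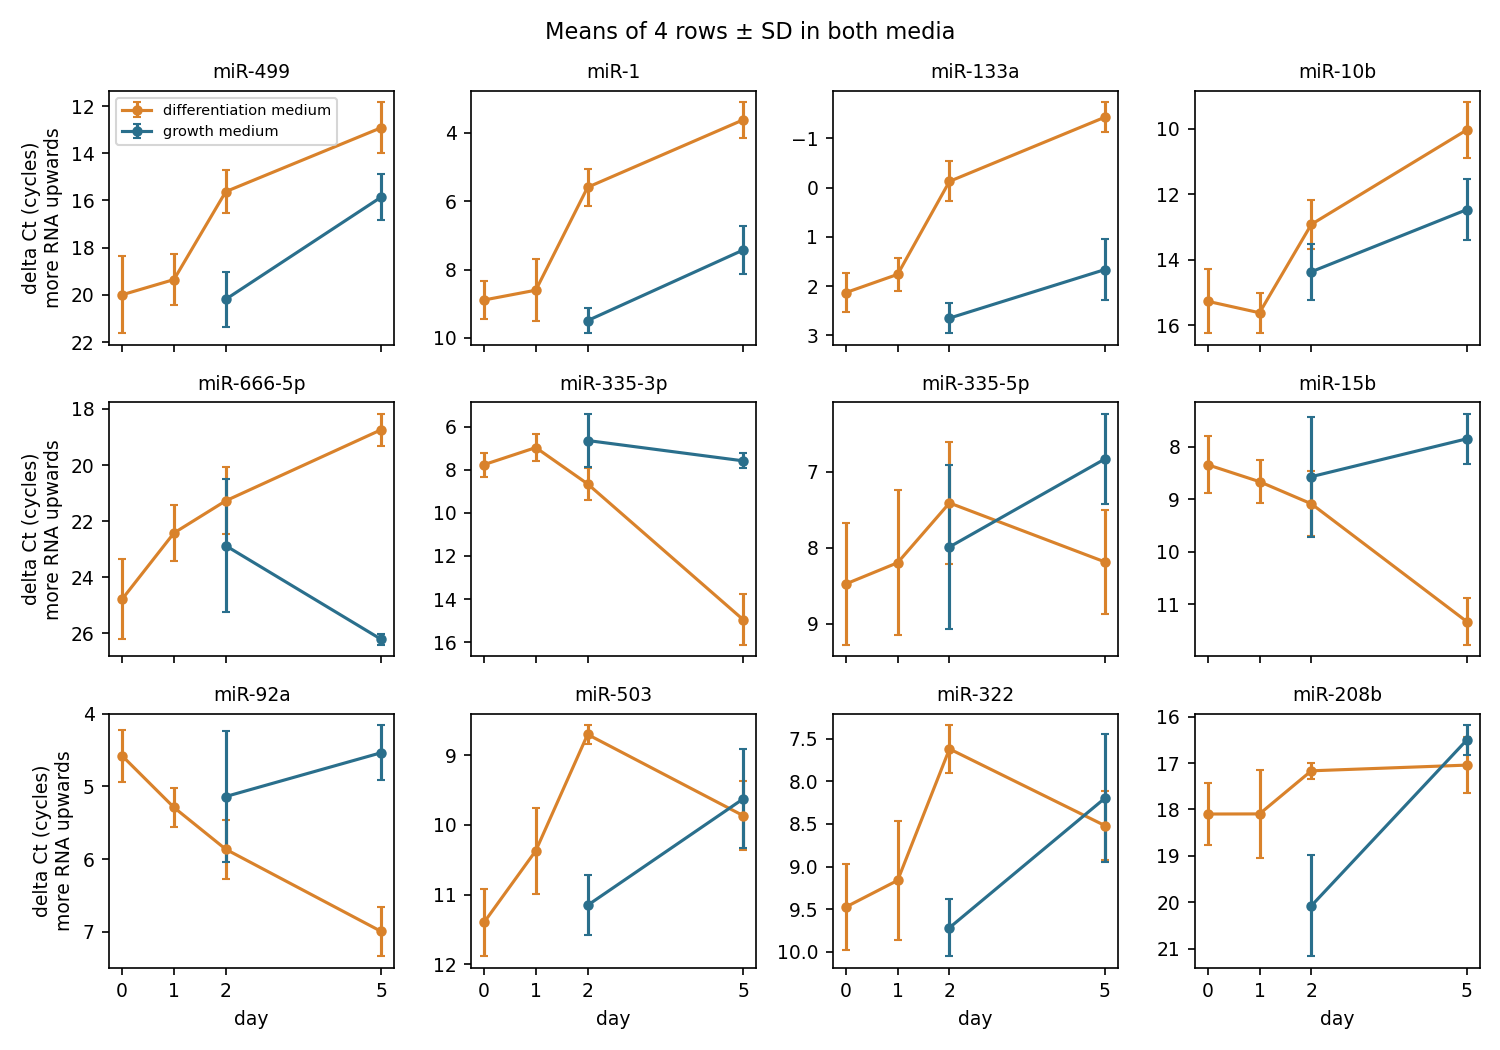
Mean delta Ct of 4 rows (cycles, axis turned so that more RNA is higher, bars show SD) by day for 12 miRNAs in differentiation medium (orange, days 0, 1, 2 and 5) and growth medium (blue, days 2 and 5; 3 wells a day for miR-666-5p). The muscle miRNAs are higher on day 5 than on day 2 in both media, while miR-335-3p and miR-15b drop in differentiation medium.

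Most markers of other cell types did not pass against MammU6, while the row median called 3 of 5 fibroblast, 3 of 5 blood and 2 of 3 epithelial markers lower. Of all assays it called 34.1% lower, and counts in lists this small were not tested against that share. In bulk RNA, fewer cells of a type and less RNA per cell cannot be told apart. Of the fibroblast and smooth muscle markers 0 of 5 passed, and their summed level (relative to MammU6 as 1000) was 19.0 to 48.7 over the rows of day 0 and 22.0 to 49.7 on day 5. The 2 endothelial markers did not pass, at 0.54 to 1.30 and 1.15 to 2.12, and of 3 epithelial markers none passed, at 0.36 to 0.70 and 0.24 to 0.42. Of 5 tested blood markers 1 fell, miR-155, and their sum went from 6.27 to 12.4 on day 0 to 3.71 to 5.75 on day 5, but miR-155 alone made up 98.0% to 99.4% of it. Of 3 neuronal markers miR-9 and miR-128a rose, by 3.27 ± 0.42 and 3.11 ± 0.41. The third, miR-137, changed by -0.04 and did not pass, with a Ct in 3 wells of day 0 and 4 of day 5. The neuronal sum went from 0.36 to 0.83 on day 0 to 3.39 to 7.62 on day 5. Of this sum miR-128a, also on the myoblast list, made up 97.2% to 98.7%, while miR-124 and miR-219 had too few wells to test. Of 11 markers of pluripotent cells none could be tested. The part of these cells in the changes above was not tested.

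Of 7 tested miRNAs of hypoxia, stress and inflammation, miR-146b rose by 1.37 ± 0.32 and miR-155 fell, while miR-21 changed by 0.45 ± 0.50, miR-210, which marks hypoxia, by 0.36 ± 0.34 miR-146a by 0.51 ± 0.44 and miR-132 by -0.41, none past the test. Against the row median 0 of the 7 were higher and 5 lower, beside 19.5% and 34.1% of all assays. The 5 included miR-21 at -0.71 and miR-210 at -0.80. In 7 pairs of a mouse and a rat assay for the same miRNA that were both tested, the 2 changes had the same call in 6, and the seventh, miR-381, passed with the mouse assay (1.20 ± 0.42) and not with the rat one (1.42 ± 0.60). miR-532-5p differed the most within a pair after miR-1, at 1.17 ± 0.32 with the mouse assay and 1.87 ± 0.51 with the rat one.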

How the data were processed

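The authors deposited a threshold cycle (Ct) for every assay, day and row, and a signed fold value (a score) against the earlier day, per the file headers. Per the labels, the PCR ran for 40 cycles on a 7900HT instrument, from TRIzol RNA with an integrity number above 9. The authors' steps from plate to Ct, such as the threshold and baseline, are not given in the sources used here. All 228 of the authors' deposited signed fold values for day 5 against day 0 equalled those computed here from the mean delta Ct within 1e-06. Day columns repeated between files held identical Ct values and were counted once. A Ct has no read depth, and the number of wells and their lateness limit its precision.

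The members and the gene lists were chosen with earlier results of these data known. Delta Ct was the Ct of an assay minus that of MammU6 in the same row. Assays with a Ct in at least 3 of 4 wells on both days and a mean Ct below 35 on at least 1 of them were tested, and wells with no Ct were left out. One limma fit (version 3.58.1, R 4.3.3, lmFit and eBayes) held the 16 rows of the 4 differentiation days, which share 1 estimate of the spread. The difference between media came from a fit of all 6 day columns, and arm balances from the difference of both arms' Ct in the same row. P-values were adjusted by Benjamini-Hochberg over all assays tested, and are two-sided. The script was tested on simulated data. Alternatives were the reference, the filters, the threshold, a row block, and leaving out each row. miRNAs were named by rule: the largest changes, list members and media differences. Figures were drawn in Python 3.11.15 with matplotlib 3.10.9.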

Additional observations from a re-analysis of the deposited data

Results flagged for a closer look

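In 16 of the 257 groups of 4 rows examined, 1 row stood apart from the other 3 by Dixon's ratio, where chance alone gives about 1 in 20. In 12 of the 16 the row apart was row 1, in which MammU6 came latest on both days. In delta Ct, row 1 of day 5 was 6.29 for let-7d (others 7.38 to 7.49), 7.06 for miR-128a (8.08 to 8.23), -1.89 for miR-133a (-1.29 to -1.26), 11.26 for miR-195 (11.68 to 11.70), 9.34 for miR-23b (10.38 to 10.55), 3.20 for miR-31 (3.96 to 4.01) and 5.28 for miR-532-3p (6.13 to 6.27). Row 1 of day 0 was 6.24 for miR-214 (7.15 to 7.27), 5.27 for miR-221 (6.69 to 6.91), 8.21 for miR-25 (9.44 to 9.61), 4.74 for miR-30b (5.59 to 5.71) and 11.07 for miR-324-3p (12.37 to 12.58). The other 4 were row 3 of day 0 for miR-10b at 16.72 (14.72 to 14.91), row 4 of day 5 for miR-425 at 12.56 (12.08 to 12.11), row 2 of day 5 for miR-685 at 10.71 (10.17 to 10.24) and row 2 of day 0 for miR-96 at 22.71 (19.08 to 19.50). With row 1 of both days left out, an alternative chosen after seeing the data, 107 of 240 assays were higher and 24 lower.

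Over all 243 assays, 15 differences between media were called higher (6.17%) and 15 lower (6.17%). In the day 5 against day 0 test, miR-666-5p and miR-330 passed the Ct filter through day 5 only. miR-615-5p and the rat miR-207 assay passed it through day 0 only. Their changes in differentiation, which enter the differences below, are no support for a change. The change in differentiation minus that in growth medium passed the test of the difference for 25 named miRNAs, some of them named for this same difference. It was higher in differentiation by 9.37 for miR-666-5p, 4.37 for miR-330, 3.33 for miR-10b, 3.21 for miR-1, 3.19 for miR-425, 2.97 for miR-504, 2.67 for the rat miR-1 assay, 2.58 for miR-133a, 2.07 for miR-139-5p and 1.52 for miR-182. The difference was -6.24 for miR-335-3p, -4.25 for the rat miR-207 assay, -3.72 for miR-15b, -3.40 for miR-615-5p, -3.25 for miR-135a, -3.02 for miR-92a and -2.65 for miR-582-3p. It was -2.52 for miR-208b, -2.25 for miR-685, -1.94 for miR-195, -1.82 for miR-20a, -1.75 for miR-16, -1.68 for miR-125b-3p, -1.41 for miR-106a and -1.37 for miR-17.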

How the results depend on the processing

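The count of 128 called assays stayed within 1.5 times of itself under every alternative run except the stricter threshold of 0.01, which left 82 (67 higher, 15 lower), and leaving out a row gave 101 to 147. The called set moved more than the count. Of the 128, 72 were called in the same direction against the row median, 95 against snoRNA202 and 88 against Y1. Of the 79 called miRNAs named here, 66 passed in every fit with a row left out that could test them, and 13 did not in at least 1. The row median turned the sign of 33 named miRNAs, of which 15 passed under 1 of the 2 references and 0 under both: miR-125a-5p to -0.96, miR-125b-5p to -1.11 (with snoRNA202 to -0.62), miR-145 to -0.78, miR-188-5p to -0.26, miR-199a-3p to -0.91, miR-21 to -0.71, miR-210 to -0.80, miR-30b to -0.075, miR-30c to -0.15, miR-322 to -0.21, miR-324-3p to -0.67, miR-335-5p to -0.87, miR-340-3p to -0.90, miR-345-3p to -1.13 and miR-34c to -0.86. Of these, miR-188-5p, miR-30b, miR-30c and miR-322 had been called higher. The 30 differences between media became 83 against the row median, 65 against the mean of the 4 controls, 95 against snoRNA135, 53 against snoRNA202, 17 at the stricter threshold and 18 with day 5 minus day 2 in both media, and 20 to 34 with a row left out. On those matched days 7 of the called differences turned sign, to -0.0925 for miR-1, 0.23 for miR-125b-3p, -0.075 for miR-139-5p, -0.25 for miR-182, -0.13 for miR-504, 1.48 for miR-615-5p and -0.13 for the rat miR-1 assay. The cause of these moves was not tested. With row position as a replicate block, 176 assays were called (141 higher, 35 lower), with miR-208b, miR-221, miR-222 and both endothelial markers among the added calls, 104 differences between media, 11 arm balances in place of 8, and 3 of the 4 controls in place of 0 in limma (where 0 of the 4 had an unadjusted p under 0.05 without the block). Rows at the same position correlated at 0.28, 0.22, 0.06 and 0.30 in their deviations from the day means over 235 assays, and not every row correlated best with its own number, and the labels do not tie a position to a shared culture. Arm balances gave 6 to 9 calls with a row left out, where miR-296 or miR-615 could not be tested when a day kept under 3 wells. Late Ct values, above 32, rest on few template molecules, and with a limit of 32 on both days 116 of 213 assays were called.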
